A study of Mus musculus with 6 samples.

Results

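The genes described here build the respiratory chain and the ATP synthase of the mouse colon. They were chosen by name: every gene named as mitochondrially encoded, and every nuclear gene whose name begins as those of the subunits and assembly factors of complexes I to V do, leaving out Cox6a2 and names marked as pseudogenes. This gave 133 of the 52134 gene names in the deposited table, and 109 of them carried values. These 109 were 13 mitochondrially encoded protein genes, 80 nuclear subunits and 16 nuclear assembly or associated factors. The remaining 24 were the 2 mitochondrial ribosomal RNAs and 22 transfer RNAs, which the table lists without a value.

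RNA came from whole colons of Tnfrsf1a-/- mice, labelled R1ko (3 libraries), and of wild-type mice, labelled WT (3 libraries). Tnfrsf1a encodes TNFR1, a receptor for tumour necrosis factor. All animals were males of 12 weeks, the labels give the strain C57Bl/6J for both genotypes, and polyadenylated RNA was sequenced. The labels state neither how the knockout allele was made nor whether the groups were littermates.

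The respiratory chain is assembled from the products of separate genomes. Mitochondrial DNA encodes a few central subunits of complexes I, III, IV and V, transcribed as long precursors inside the organelle, while all subunits of complex II and most subunits of the others are encoded in the nucleus, translated in the cytosol and imported. Absorptive colonocytes depend on oxidative phosphorylation of butyrate, a product of bacterial fermentation, and smooth muscle of the colon wall also contains mitochondria. In whole colon, more cells of a type and more RNA per cell cannot be told apart.

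The values are TPM, a transcript abundance that allows for transcript length and has the same total in every library, so levels of different genes can be compared. Read depth behind each value is unknown. In WT replicate 2, a pair of transcripts with no gene held 26.9% of all TPM, against 1.25 to 6.69% in the other 5 libraries, which lowers every other TPM in that library. Values after median-of-ratios scaling, which sets the typical gene to the same level in every library, are therefore given as scaled values beside those deposited. The summed Tnfrsf1a level was 49.2, 36.5 and 46.9 TPM in R1ko and 71.2, 44.1 and 63.0 TPM in WT, which overlap. Its full-length transcript, ENSMUST00000032491, had 23.5, 20.4 and 25.6 TPM in R1ko against 67.6, 39.9 and 59.1 TPM in WT, without overlap. Nnt, a mitochondrial transhydrogenase whose gene is damaged in C57BL/6J mice, had 29.0, 25.8 and 27.5 TPM in R1ko and 11.4, 6.87 and 10.2 TPM in WT (limma, Benjamini-Hochberg adjusted p = 0.000901, and 0.00247 scaled). A difference in strain background and the knockout cannot be told apart for any gene described here. Markers of the labelled tissue were present: the 7 colonocyte markers summed to 3923, 4027 and 3901 TPM in R1ko and 3739, 3092 and 3757 TPM in WT.

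All 13 mitochondrially encoded protein genes had a positive log2 fold change (R1ko over WT), and in 11 of them every R1ko library lay above every WT library. Their median log2 fold change was 0.33, against 0.18 for the 78 nuclear subunits tested, 0.05 for the 16 factors and 0.02 for all 14248 genes tested. None of the 107 tested members passed the threshold of 0.05 on the adjusted p, as deposited or scaled. Across all genes, 38 passed as deposited (0.267%) and 6 passed scaled (0.0421%). The smallest adjusted p (limma, Benjamini-Hochberg over all genes) was 0.610 among mitochondrial genes, for mt-Atp8, and 0.917 among nuclear ones, for Cox8b. An unadjusted p below 0.05 was reached by 5 of the 107 (mt-Atp8, mt-Cytb, mt-Nd4l, Cox8b and Ndufa4l2), beside 3.69% of all genes. After scaling it was reached by 13, beside 11.3% of all genes.

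The 11 of 13 mitochondrial genes without overlap stand beside 3.17% of all genes with every R1ko library above every WT library. After scaling this held for 6 of the 13, beside 9.29% of all genes. These 6 were mt-Cytb, mt-Co1, mt-Co2, mt-Co3, mt-Atp8 and mt-Atp6, all the mitochondrial genes of complexes III, IV and V, and none of the 7 of complex I. The scaled median was 0.30, beside 0.00 for all genes. Without WT replicate 2 the deposited median was 0.23, with 12 of 13 positive, while the median of all genes was −0.13. Scaled and without R1ko replicate 2, it was 0.22, also with 12 of 13 positive.

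**Figure D1:**
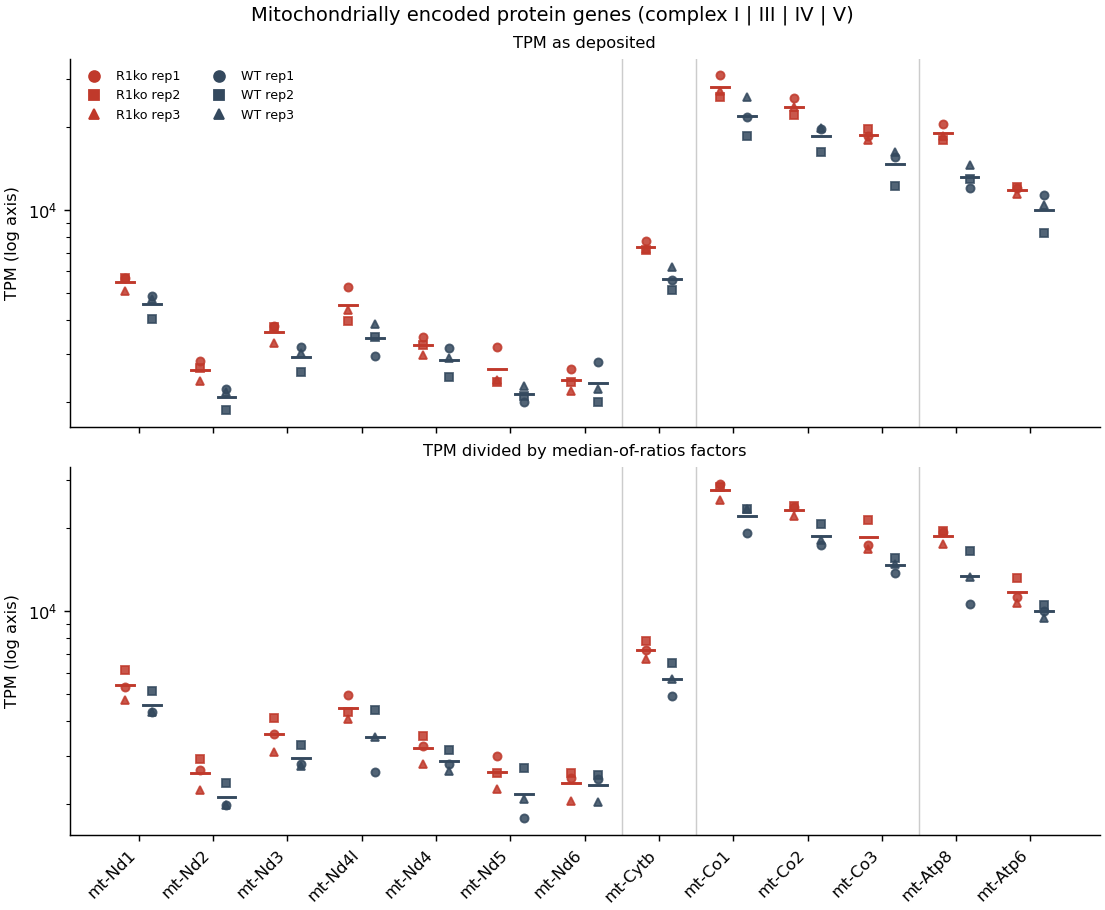
TPM (log axis) of the 13 mitochondrially encoded protein genes in each library, as deposited (top) and divided by median-of-ratios factors (bottom). Points are libraries, R1ko left of WT for each gene, and bars are group means (n = 3). As deposited, the groups overlap only for mt-Nd4 and mt-Nd6; after scaling they separate for the 6 genes right of mt-Nd6.

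Complex IV, cytochrome c oxidase, hands electrons to oxygen, and its 3 mitochondrial genes form the catalytic core. mt-Co1, which carries the site of oxygen reduction, was assigned the highest TPM of any member in all 6 libraries. It had 30850, 25792 and 26961 TPM in R1ko and 21739, 18507 and 25747 TPM in WT. The lowest R1ko library lay only just above the highest WT library. Its log2 fold change was 0.35 ± 0.19 (SE). mt-Co2, which receives electrons from cytochrome c, came next in every library. It had 25425, 22080 and 23580 TPM in R1ko and 19706, 16288 and 19884 TPM in WT. The order of mt-Co1 and mt-Co2 depends on reads given to a nuclear copy of mt-Co2, described below. mt-Co3 had 18502, 19713 and 17967 TPM in R1ko against 15580, 12273 and 16306 TPM in WT. For mt-Co2 and mt-Co3 the groups were also separate, and their log2 fold changes were 0.35 and 0.36.

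Complex III, the cytochrome bc1 complex, has a single mitochondrial subunit, cytochrome b. mt-Cytb had 7723, 7139 and 7188 TPM in R1ko and 5576, 5113 and 6219 TPM in WT, with no overlap. The group means were 7350 ± 324 TPM in R1ko and 5636 ± 556 TPM in WT (SD, n = 3 each), a log2 fold change of 0.39 ± 0.18 (SE).

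Complex V, the ATP synthase, takes mt-Atp6, part of its proton channel, and mt-Atp8, a small membrane subunit. mt-Atp8 had 20504, 17919 and 18628 TPM in R1ko and 12028, 12958 and 14610 TPM in WT. Every R1ko library lay above every WT library, and its log2 fold change of 0.53 ± 0.19 (SE) was the largest of the 13. mt-Atp6 had 11977, 12144 and 11391 TPM in R1ko and 11351, 8264 and 10423 TPM in WT, which were separate by a narrow margin (log2 fold change 0.25 ± 0.19, SE).

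The 2 genes of complex V overlap, which bears on how reads are divided between them. mt-Atp8 (mm10 chrM:7766-7969) and mt-Atp6 (chrM:7927-8607) share 43 bases in different reading frames and lie on a bicistronic RNA. The end of the mt-Atp8 transcript and the start of the mt-Atp6 transcript, from the GENCODE M21 transcripts, show the shared bases in capitals with 12 bases beyond them in lower case:
mt-Atp8 end: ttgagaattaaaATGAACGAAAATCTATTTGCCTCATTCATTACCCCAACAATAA
mt-Atp6 start: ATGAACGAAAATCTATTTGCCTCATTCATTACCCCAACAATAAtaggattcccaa
The capitals open with the start codon of mt-Atp6 and close with the stop codon of mt-Atp8. mt-Atp8 is only 204 bases long, and mt-Nd4l, which shares 7 bases with mt-Nd4, is 297 bases long. These 2 are the shortest of the 13 genes, and they had the 2 largest log2 fold changes. The ratio of mt-Atp8 to mt-Atp6 was 1.71, 1.48 and 1.64 in R1ko and 1.06, 1.57 and 1.40 in WT. The groups overlap through WT replicate 2. The part of transcript length and shared bases in these values was not tested.

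Complex I, NADH dehydrogenase, takes 7 mitochondrial subunits of its proton-pumping membrane arm. mt-Nd1 had 5661, 5639 and 5089 TPM in R1ko and 4888, 4025 and 4737 TPM in WT. mt-Nd4l had 5269, 3952 and 4349 TPM in R1ko and 2950, 3457 and 3841 TPM in WT. Both were separate between groups, with log2 fold changes of 0.27 and 0.40. mt-Nd3 had a mean of 3613 ± 288 TPM in R1ko and 2928 ± 304 TPM in WT (SD, n = 3 each). mt-Nd2 had 2628 ± 216 TPM in R1ko and 2098 ± 195 TPM in WT, and mt-Nd5 had 2653 ± 451 TPM in R1ko and 2138 ± 140 TPM in WT. These 3 genes did not overlap between groups, and their log2 fold changes were 0.31, 0.33 and 0.30. mt-Nd4 had 3458, 3232 and 2981 TPM in R1ko and 3155, 2472 and 2907 TPM in WT, with an overlap. That overlap depends on reads given to a nuclear copy, described below.

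mt-Nd6 differed from the other 12 in position and in value. It is the only one of the 13 encoded on the opposite DNA strand (chrM:13552-14070), and it overlaps 14 bases of mt-Nd5. mt-Nd6 had 2651, 2375 and 2195 TPM in R1ko and 2799, 2000 and 2233 TPM in WT. The groups interleave, and the log2 fold change of 0.05 ± 0.19 (SE) was the smallest of the 13. It was 0.02 scaled and −0.06 without WT replicate 2. As a share of all 13 genes, which no scaling of a library changes, mt-Nd6 made up 1.87, 1.84 and 1.71% in R1ko and 2.61, 2.18 and 1.95% in WT. All 3 R1ko shares were below all 3 WT shares. mt-Co1 had 20.9 ± 0.87% of the same sum in R1ko and 20.97 ± 1.33% in WT (SD, n = 3 each), with overlap. The sources do not state that the counting used strand, so reads from mt-Nd6 and from RNA of the opposite strand cannot be told apart.

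By level, the mitochondrial genes ran from mt-Co1 and mt-Co2 through mt-Co3 and mt-Atp8, mt-Atp6 and mt-Cytb down to the genes of complex I. mt-Co3 and mt-Atp8 changed places between libraries. mt-Nd2, mt-Nd5 and mt-Nd6, the lowest 3 by mean in both groups, did not differ from each other beyond their spread. Several mitochondrial genes have close copies in the nuclear genome, so their reads can be divided. Gm28661 matches 681 of the 684 bases of mt-Co2 at 100% identity and was assigned 4334, 5749 and 4932 TPM in R1ko and 3874, 2648 and 6206 TPM in WT. Gm28439 matches 876 of the 1378 bases of mt-Nd4 at 100% and was assigned 1150, 655 and 941 TPM in R1ko and 333, 514 and 616 TPM in WT. The levels of mt-Co2 and mt-Nd4 are uncertain by about these amounts. With Gm28661 added, mt-Co2 lies above mt-Co1 in every library except R1ko replicate 1, so which of them is higher depends on how these reads are divided. With Gm28439 added to mt-Nd4, every R1ko library lies above every WT library, so the overlap of mt-Nd4 depends on how these reads are divided.

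Together the 13 genes held 14.2, 12.9 and 12.8% of all TPM in R1ko and 10.7, 9.19 and 11.4% in WT. The means were 13.3 ± 0.76% in R1ko and 10.45 ± 1.15% in WT (SD, n = 3 each), with no overlap. Of the TPM that belonged to a gene, the shares were 14.6, 13.9 and 13.1% in R1ko and 11.2, 12.7 and 11.8% in WT. With the transcripts without a gene left out, the groups were thus also separate. The nuclear subunits held 3.03, 3.17 and 3.19% of all TPM in R1ko and 3.07, 2.22 and 3.06% in WT, which overlap. Of the TPM that belonged to a gene they held 3.26 ± 0.15% in R1ko and 3.14 ± 0.07% in WT (SD, n = 3 each), also with overlap.

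The summed level of the mitochondrial genes over that of the nuclear subunits of complexes I, III, IV and V is a ratio inside each library, and no scaling of a library changes it. It was 4.86, 4.21 and 4.17 in R1ko and 3.61, 4.29 and 3.87 in WT. WT replicate 2 lay above 2 of the R1ko libraries, so the groups overlap, and the difference of the mean log2 ratios was 0.17 with SDs of 0.12 in R1ko and 0.13 in WT. By complex, the ratio was separate only for complex IV, at 8.44, 7.39 and 7.31 in R1ko and 6.54, 7.26 and 6.82 in WT. There the nearest values of the groups almost touch. The ratio was 3.30 ± 0.42 in R1ko and 3.12 ± 0.37 in WT for complex I, 1.74 ± 0.12 in R1ko and 1.53 ± 0.18 in WT for complex III, and 3.29 ± 0.24 in R1ko and 2.78 ± 0.34 in WT for complex V (SD, n = 3 each). All 3 overlap. Taken per gene rather than as sums, a mitochondrial gene of complex IV averaged 43.7 ± 3.58 times the level of a nuclear one in R1ko and 38.9 ± 2.05 times in WT. The same ratio per gene was 17.0 ± 2.15 in R1ko and 16.04 ± 1.88 in WT for complex I. The nuclear mean of complex IV takes in all 17 genes, with the untested Cox7b2 and Cox8c and the low Cox4i2, Cox6b2 and Cox8b. These raise its ratio, so the per-gene values of complexes I and IV are not directly comparable.

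**Figure D2:**
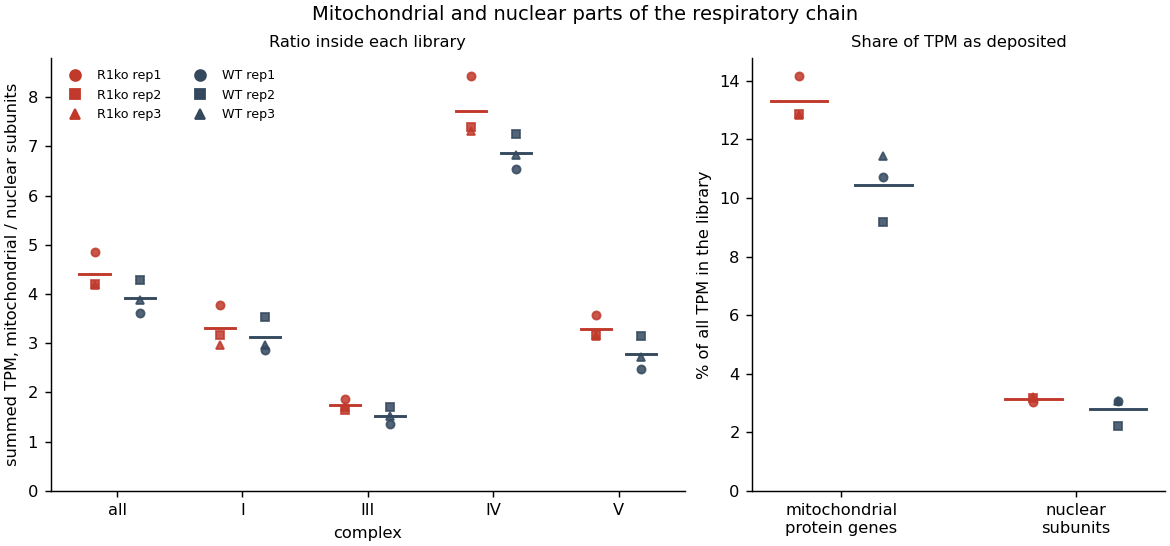
Left, summed TPM of mitochondrial over nuclear subunits in each library, for complexes I, III, IV and V together and one by one. Right, the share of all TPM held by the mitochondrial protein genes and by the nuclear subunits. Points are libraries and bars are group means (n = 3), R1ko left of WT. The mitochondrial share is separate between groups (12.8 to 14.2% in R1ko, 9.19 to 11.4% in WT), whereas the ratio over all complexes overlaps through WT replicate 2.

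Among the nuclear subunits, 76 of 78 tested had a positive log2 fold change, beside 55.7% of all genes. Single libraries set much of this direction. As deposited, WT replicate 2 was the lowest of the 6 libraries for 77 of the 78. Without it, 47 of 78 were positive, with a median of 0.02 beside −0.13 for all genes. After scaling, 75 of 78 were positive, beside 49.4% of all genes, with a median of 0.15, and R1ko replicate 2 was then the highest library for 73 of the 78. Scaled and without that library, 67 of 78 were positive with a median of 0.07. In 7 of the 78, every R1ko library lay above every WT library (Ndufa1, Ndufa6, Ndufa7, Ndufa11, Sdha, Uqcrb and Cox7c), beside 3.17% of all genes. Cox4i2 was the 1 subunit with every R1ko library below, beside 1.82%. After scaling, 20 were above and 2 below, beside 9.29 and 9.18% of all genes.

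**Figure D3:**
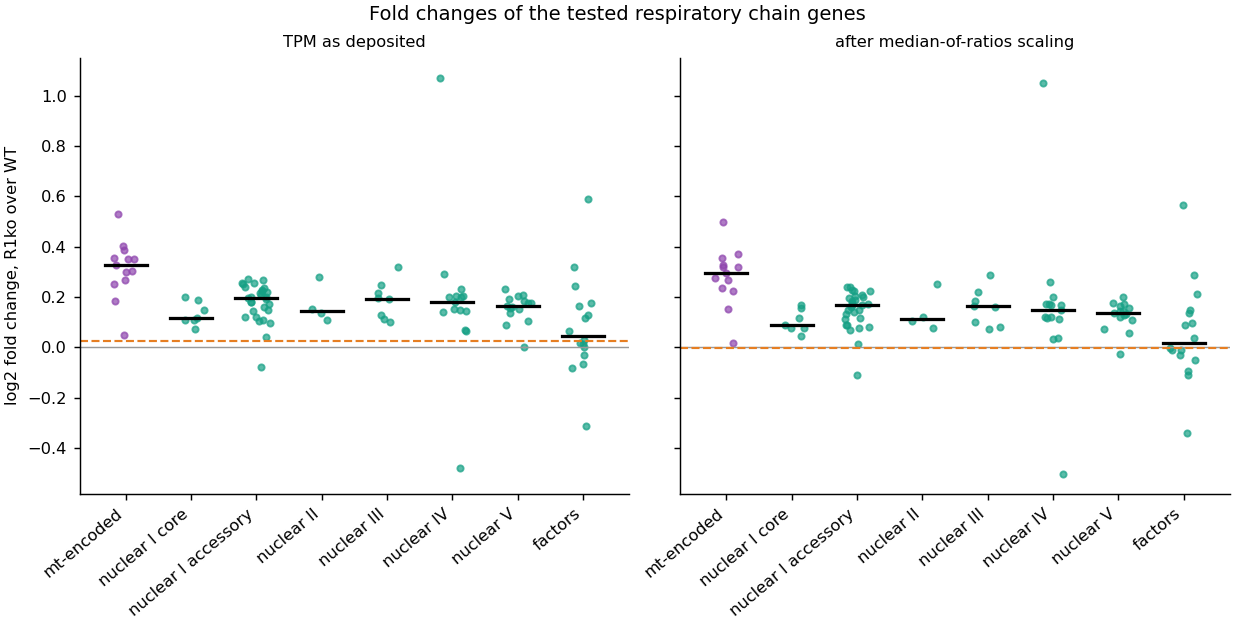
Log2 fold change (R1ko over WT) of each tested member by class, from TPM as deposited (left) and after median-of-ratios scaling (right). Points are genes, black bars class medians, and the dashed line the median of all 14248 genes tested (0.02 left, 0.00 right). The mitochondrial genes have the highest class median in both panels (0.33 and 0.30), and Cox8b stands alone above 1.

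The nuclear part of complex I comprised 7 core subunits, which carry the flavin and the iron-sulphur clusters, and 29 accessory subunits. The core had a median log2 fold change of 0.12 and the accessory subunits of 0.20, with 35 of the 36 positive. Ndufv2, an iron-sulphur subunit of the NADH-binding module, was the most abundant core gene at 249.5 ± 13.8 TPM in R1ko and 233 ± 34.7 TPM in WT (SD, n = 3 each). Ndufv1, which binds NADH and flavin, had 223 ± 11.9 TPM in R1ko and 208 ± 39.95 TPM in WT, and Ndufs1, the lowest, had 94.8 ± 5.68 TPM in R1ko and 88.6 ± 13.6 TPM in WT. Every one of these overlapped between groups. The log2 fold changes of the core ran between 0.07 for Ndufs8 and 0.20 for Ndufs7, which both bind iron-sulphur clusters.

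Among the accessory subunits, Ndufb9 and Ndufa6 were the most abundant. Ndufa6 had 514, 519 and 543 TPM in R1ko and 504, 349 and 485 TPM in WT. The groups were separate, with WT replicate 1 close to the R1ko libraries and WT replicate 2 far lower. Ndufb9 had 528 ± 24.3 TPM in R1ko and 457 ± 78.6 TPM in WT (SD, n = 3 each), and Ndufa11, the lowest accessory subunit, had 20.8 ± 0.79 TPM in R1ko and 18.4 ± 2.33 TPM in WT. Ndufb6 had the largest log2 fold change among the nuclear subunits of complex I, 0.27 ± 0.20 (SE). Its levels were 195, 228 and 214 TPM in R1ko and 217, 137 and 182 TPM in WT, which overlap. Ndufab1, the mitochondrial acyl carrier protein, was the only negative member, with 67.6, 63.4 and 73.1 TPM in R1ko and 83.3, 54.8 and 80.6 TPM in WT. It overlapped as deposited and lay below in every R1ko library after scaling, with a scaled log2 fold change of −0.11 ± 0.07 (SE). Its most abundant transcript, protein-coding ENSMUST00000123296, had 40.4, 45.4 and 45.1 TPM in R1ko and 47.3, 34.0 and 43.9 TPM in WT. The log2 fold change of that transcript was 0.08 ± 0.18 (SE), with overlap. Several retained-intron transcripts of Ndufab1 had lower means in R1ko. One was ENSMUST00000146022 with a mean of 4.24 TPM in R1ko and 6.33 TPM in WT, where the groups overlap.

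Complex II, succinate dehydrogenase, links the citric acid cycle to the chain and has no mitochondrially encoded subunit. Sdha, its flavoprotein, had 345, 333 and 351 TPM in R1ko and 270, 251 and 330 TPM in WT. The groups were separate, though WT replicate 3 came within a few TPM of the lowest R1ko library, and the log2 fold change was 0.28 ± 0.19 (SE). The iron-sulphur subunit Sdhb had 269 ± 6.04 TPM in R1ko and 248 ± 47.6 TPM in WT (SD, n = 3 each). The membrane anchors had 186 ± 6.15 TPM in R1ko and 169 ± 28.4 TPM in WT for Sdhc, and 281 ± 5.59 TPM in R1ko and 264 ± 46.4 TPM in WT for Sdhd. All 3 overlapped. The ratio of Sdha to Sdhb was 1.28 ± 0.05 in R1ko and 1.16 ± 0.14 in WT, with overlap. By transcript, the protein-coding Sdha form ENSMUST00000022062 had 226, 229 and 234 TPM in R1ko and 219, 168 and 232 TPM in WT. The processed Sdha transcript ENSMUST00000160667 had 69.1, 75.2 and 82.4 TPM in R1ko and 38.7, 37.9 and 73.3 TPM in WT. Both transcripts had their lowest value in WT replicate 2, and both overlapped between groups through WT replicate 3.

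The nuclear subunits of complex III had a median log2 fold change of 0.19. Uqcrh, the hinge protein, was the most abundant at 915 ± 16.4 TPM in R1ko and 809 ± 150.05 TPM in WT (SD, n = 3 each). Uqcrb, which binds near the ubiquinone site, had 855, 945 and 829 TPM in R1ko and 823, 591 and 819 TPM in WT. The groups were separate by a few TPM. Uqcr11, a small accessory subunit, had the largest log2 fold change among the nuclear subunits of complex III, 0.32 ± 0.19 (SE), with 363, 359 and 403 TPM in R1ko and 362, 250 and 299 TPM in WT. WT replicate 1 overlapped the R1ko libraries as deposited, and after scaling Uqcr11 lay above in every R1ko library. Uqcrfs1, the Rieske iron-sulphur protein, had the lowest level and the smallest log2 fold change, with 221 ± 12.1 TPM in R1ko and 209 ± 41.2 TPM in WT.

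Complex IV draws several subunits from pairs of isoform genes. Cox4i1, the general form of subunit IV, was the most abundant nuclear member of all, with 1409, 1457 and 1510 TPM in R1ko and 1385, 1078 and 1518 TPM in WT. Cox6a1, the general form of subunit VIa, had 1132, 1303 and 1312 TPM in R1ko and 1114, 828 and 1145 TPM in WT. Both overlapped between groups, with log2 fold changes of 0.15 and 0.29. Cox4i2, the form known from lung and from oxygen sensing, had only 2.40, 2.65 and 1.61 TPM in R1ko and 3.48, 2.79 and 3.49 TPM in WT. Every R1ko library was below every WT library, and its log2 fold change was −0.48 ± 0.27 (SE). Its protein-coding transcript ENSMUST00000010020 had 2.40, 2.65 and 1.61 TPM in R1ko and 3.15, 2.38 and 3.38 TPM in WT, which overlap. At these low levels, the separation of the sums thus rests on its other transcript. Cox4i2 made up 0.153 ± 0.04% of the summed Cox4 forms in R1ko and 0.246 ± 0.01% in WT (SD, n = 3 each).

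Cox8b, the form of subunit VIII found in heart, skeletal muscle and brown fat, had the largest fold change among the 107 members. Its levels were 12.9, 31.3 and 20.8 TPM in R1ko and 33.6, 3.65 and 6.44 TPM in WT. WT replicate 1 was the highest of all 6 libraries, so the groups overlap, and the log2 fold change of 1.07 ± 0.43 (SE) came from the other 2 WT libraries. The muscle form Cox6a2, outside the rule used here, had 7.24, 18.1 and 8.82 TPM in R1ko and 17.2, 1.14 and 3.68 TPM in WT. The summed level of 12 skeletal muscle markers put the 6 libraries in the same order as Cox8b, with 1086, 2854 and 1501 TPM in R1ko and 2872, 175 and 619 TPM in WT. All 12 were positive with a median log2 fold change of 1.37, and the fast myosin gene Myh4 was at 0.102 to 7.63 TPM. Of the 4 brown fat markers, Ucp1 was at 0 in every library but WT replicate 3, which had 0.0177 TPM, and Dio2 was at 0.0668 to 0.182 TPM. Cidea was at 1.91 to 4.58 TPM and Elovl3 at 5.11 to 16.8 TPM, and both were lowest in WT replicate 2. The part of skeletal muscle or fat RNA in the Cox8b values was not tested. The general form Cox8a had 1180 ± 56.5 TPM in R1ko and 1016 ± 189 TPM in WT (SD, n = 3 each).

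**Figure D4:**
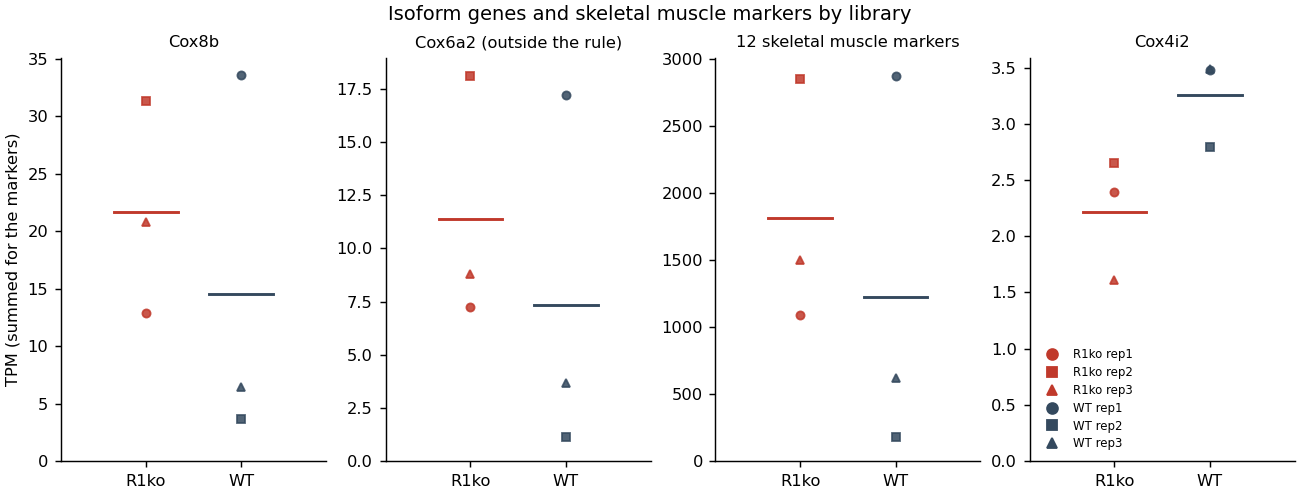
TPM in each library of Cox8b, of Cox6a2 (outside the name rule), of 12 skeletal muscle markers summed, and of Cox4i2, each on its own linear axis. Points are libraries and bars are group means (n = 3), R1ko left of WT. Cox8b and Cox6a2 follow the muscle markers, with WT replicate 1 high and WT replicate 2 lowest. Cox4i2, summed over its transcripts, is lower in all 3 R1ko libraries, by a narrow margin and at low levels.

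In the other isoform groups of complex IV the general form was the more abundant in both genotypes. Cox7a1, the heart and muscle form of subunit VIIa, had 161, 168 and 164 TPM in R1ko and 168, 117 and 148 TPM in WT. As deposited, these levels put the 6 libraries in the same order as the skeletal muscle markers, over a much narrower range. Scaled, Cox7a1 had 152, 183 and 154 TPM in R1ko and 149, 148 and 135 TPM in WT. That shared order was then lost for Cox7a1, though not for Cox8b. The ratio of Cox7a1 to the general form Cox7a2 was 0.52 ± 0.02 in R1ko and 0.52 ± 0.05 in WT (SD, n = 3 each). Cox6b1 had 991 ± 21.01 TPM in R1ko and 870 ± 157 TPM in WT, and its testis form Cox6b2 had 11.04 ± 2.35 TPM in R1ko and 10.3 ± 3.86 TPM in WT. Cox7b had 296 ± 9.17 TPM in R1ko and 286 ± 50.04 TPM in WT, while Cox7b2 and Cox8c stayed below 0.3 TPM in every library and were not tested. Ndufa4, first described with complex I and now placed in complex IV, had 471 ± 25.3 TPM in R1ko and 416 ± 88.4 TPM in WT.

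All 15 nuclear subunits of complex V were positive as deposited, and as deposited none was separate between groups. After scaling, 4 of them lay above in every R1ko library (Atp5g1, Atp5g3, Atp5j2 and Atp5l), beside 9.29% of all genes. Atp5b, the catalytic beta subunit, had 1377, 1361 and 1514 TPM in R1ko and 1289, 1048 and 1402 TPM in WT. The log2 fold changes ran between 0.00 for Atp5k, the e subunit of the membrane part, and 0.23 ± 0.20 (SE) for Atp5l, the g subunit beside it. Atp5k had 461, 439 and 454 TPM in R1ko and 512, 379 and 470 TPM in WT, and its direction turned negative after scaling (−0.03). The c ring that turns with the proton flow is encoded by 3 genes for the same mature protein. Atp5g3 had 1271 ± 50.1 TPM in R1ko and 1139 ± 222 TPM in WT, Atp5g2 had 470 ± 14.5 TPM in R1ko and 421 ± 75.9 TPM in WT, and Atp5g1 had 410 ± 11.9 TPM in R1ko and 360.1 ± 64.9 TPM in WT (SD, n = 3 each). Atp5g3 made up 59.1 ± 0.78% of their sum in R1ko and 59.2 ± 0.78% in WT. Atp5j2, the lowest subunit of complex V, had 192 ± 8.26 TPM in R1ko and 175 ± 33.4 TPM in WT.

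Median levels of the nuclear subunits, taken over every subunit with a value, differed by complex. The median subunit of complex V had 531 ± 24.5 TPM in R1ko and 469 ± 85.1 TPM in WT. It was followed by complex III with 409 ± 22.2 TPM in R1ko and 358 ± 70.3 TPM in WT, and by complex IV with 352 ± 10.2 TPM in R1ko and 339 ± 52.3 TPM in WT (SD, n = 3 each). Complexes III and IV changed places in WT replicate 2, so the order of these neighbours did not hold in every library. The median of complex IV was also set by its isoform genes. Its 17 genes include the untested Cox7b2 and Cox8c and the low Cox4i2, Cox6b2 and Cox8b. With the untested genes left out the median would be Ndufa4, at 471 TPM in R1ko and 416 TPM in WT, above complex III. The place of complex IV in this order thus depends on counting low isoforms. The median was lower for complex II, with 275 ± 5.61 TPM in R1ko and 252 ± 43.9 TPM in WT, and lowest for complex I, with 199 ± 11.2 TPM in R1ko and 175 ± 36.9 TPM in WT.

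**Figure D5:**
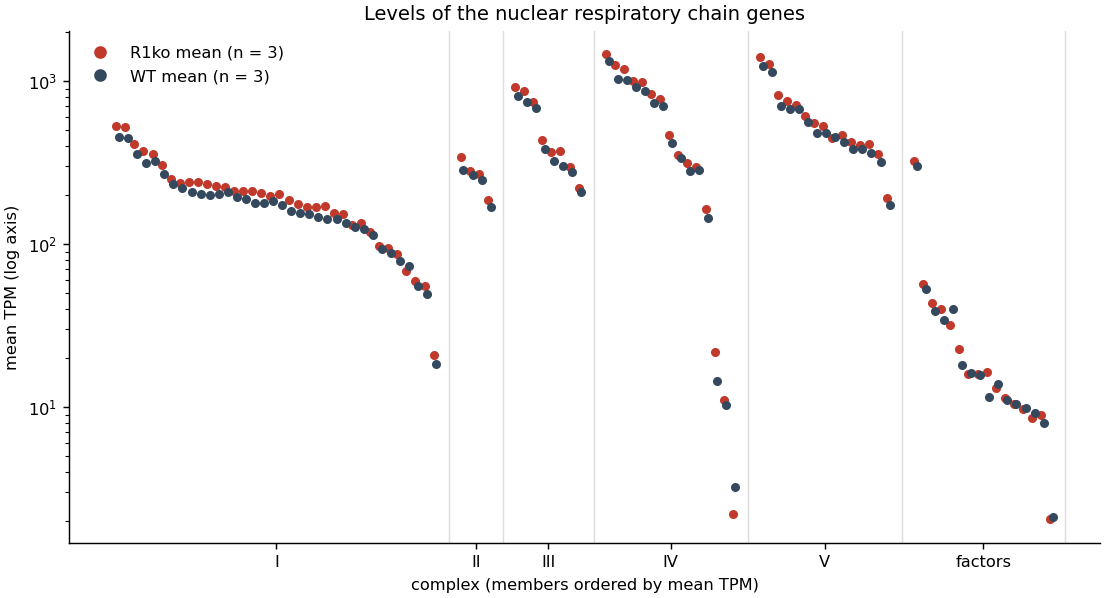
Mean TPM (log axis) of the 94 tested nuclear members in R1ko and in WT (n = 3 each), grouped by complex and ordered by mean level within it. Apart from a few low members, subunits reach up to Cox4i1 at 1459 TPM in R1ko, with the R1ko mean slightly above the WT mean, and the assembly factors lie lower, except Cox7a2l.

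The 16 assembly and associated factors had a median log2 fold change of 0.05, and 12 were positive. Cox7a2l, a factor of supercomplexes between complexes III and IV, was the most abundant with 323 ± 7.07 TPM in R1ko and 300 ± 59.7 TPM in WT (SD, n = 3 each). Ndufaf2, a chaperone of late complex I assembly, had 56.9 ± 2.44 TPM in R1ko and 53.3 ± 12.5 TPM in WT, and Sdhaf3, of complex II assembly, was lowest with 2.04 ± 0.20 TPM in R1ko and 2.10 ± 0.31 TPM in WT. Ndufa4l2, a hypoxia-induced relative of Ndufa4, had 17.5, 15.8 and 15.8 TPM in R1ko and 16.1, 6.13 and 12.2 TPM in WT. WT replicate 1 overlapped the R1ko libraries as deposited, and the log2 fold change was 0.59 ± 0.26 (SE). After scaling, Ndufa4l2 lay above in every R1ko library. Ndufaf3, which acts early in complex I assembly, had 24.7, 20.5 and 22.8 TPM in R1ko and 20.0, 14.3 and 20.4 TPM in WT. It was the 1 factor with no overlap as deposited. After scaling, 4 factors lay above and 1 below, beside 9.29 and 9.18% of all genes. Atp5sl, an assembly factor of complex I despite its name, had 33.2, 27.6 and 35.5 TPM in R1ko and 39.9, 33.1 and 47.5 TPM in WT. It overlapped as deposited and lay below in every R1ko library after scaling. Its log2 fold change was −0.31 ± 0.21 (SE) as deposited and −0.34 scaled (limma, Benjamini-Hochberg adjusted p = 0.351 scaled).

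Single transcripts were read as well, since sums can hide shifts between them. None of the 283 member transcripts tested passed the threshold, beside 0.0419% of the 31056 transcripts tested as deposited and 0.0451% scaled. An unadjusted p below 0.05 was reached by 24 of the 283, beside 5.02% of all transcripts, and by 48 scaled, beside 11.2%. The smallest adjusted p belonged to a processed transcript of the core subunit gene Ndufs3, ENSMUST00000152059, with 29.9, 29.7 and 30.5 TPM in R1ko and 20.2, 12.6 and 20.2 TPM in WT. The groups were far apart (log2 fold change 0.78 ± 0.22, SE), with adjusted p = 0.683 in limma and 0.136 scaled (Benjamini-Hochberg).

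Retained-intron transcripts of the members ran against their protein-coding ones. Of 65 retained-intron transcripts tested, 84.6% had a negative log2 fold change, with a median of −0.37, whereas 19.9% of 156 protein-coding transcripts were negative, with a median of 0.15. The same held over the whole table, where 83.0% of 4803 retained-intron transcripts were negative with a median of −0.34, so the members' share was close to the background. As a share of the TPM of the nuclear members, retained-intron transcripts made up 1.14, 0.626 and 0.970% in R1ko and 1.23, 1.22 and 1.23% in WT. All 3 R1ko libraries were below all 3 WT libraries. Over all transcripts the share was 3.46, 2.44 and 3.31% in R1ko and 3.91, 3.56 and 3.98% in WT, also without overlap. The part of RNA quality in these shares was not tested.

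The nuclear members lie on 19 chromosomes, with at most 9 on any of them. RefSeq promoters (GRCm38.p6) were matched to 80 members, with 85 start sites. NRF1, GABPA, YY1 and ERR are factors known to act on nuclear respiratory genes. The NRF1 motif, spelt out in capitals in the Cox6a1 and Atp5g2 promoters given here, was found in 7 of the 85 promoters (8.24%), against 0.971% of all 32851 promoters. The YY1 motif AAGATGGC was in 12.9% against 2.75%, the GABPA motif CCGGAAGT in 5.88% against 3.89%, and the ERR motif TCAAGGTCA in 2.35% against 0.423%, each searched on both strands. A match is a description of these letters and not a bound site. The 250 bases before the start are shown for Cox6a1 and Atp5g2, each with the NRF1 motif in capitals, and for Uqcr11, the nuclear subunit of complex III with the largest fold change, with the GABPA motif in capitals. They read along the coding strand, which is the minus strand for all 3, from chr5:115348959-115349208, chr15:102671048-102671297 and chr10:80406822-80407071:
Cox6a1: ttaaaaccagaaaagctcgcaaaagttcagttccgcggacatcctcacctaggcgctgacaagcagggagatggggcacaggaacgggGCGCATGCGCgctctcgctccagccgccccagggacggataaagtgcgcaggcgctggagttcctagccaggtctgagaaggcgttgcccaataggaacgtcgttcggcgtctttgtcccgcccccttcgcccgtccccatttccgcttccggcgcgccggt
Atp5g2: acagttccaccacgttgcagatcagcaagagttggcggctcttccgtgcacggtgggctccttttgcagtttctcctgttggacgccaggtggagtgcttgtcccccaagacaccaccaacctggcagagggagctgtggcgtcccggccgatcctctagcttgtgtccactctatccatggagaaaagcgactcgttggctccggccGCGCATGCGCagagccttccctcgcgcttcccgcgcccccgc
Uqcr11: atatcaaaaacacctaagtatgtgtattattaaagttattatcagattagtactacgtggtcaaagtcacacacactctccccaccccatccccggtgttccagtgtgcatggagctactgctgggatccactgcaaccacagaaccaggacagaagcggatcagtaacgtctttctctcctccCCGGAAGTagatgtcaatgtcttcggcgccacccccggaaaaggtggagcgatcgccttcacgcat
Cox6a1 had the largest log2 fold change among the general nuclear subunits of complex IV (0.29) and Atp5g2 a middling one (0.18), and none of the 3 passed the threshold.

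Lists of genes that make and maintain mitochondrial RNA had medians near that of all genes, and most genes of mitochondrial DNA transcription and replication were slightly negative. Of 17 tested genes of mitochondrial DNA transcription and replication, 2 were positive, with a median log2 fold change of −0.06. Polg2, the accessory subunit of the mitochondrial DNA polymerase, had 11.7 ± 1.99 TPM in R1ko and 13.9 ± 1.43 TPM in WT, and the catalytic subunit Polg had 23.0 ± 4.55 TPM in R1ko and 25.2 ± 5.23 TPM in WT (SD, n = 3 each). Of 19 genes of mitochondrial RNA processing and stability, 12 were positive with a median of 0.05. There the helicase Supv3l1 had 9.01 ± 0.90 TPM in R1ko and 10.9 ± 2.69 TPM in WT. Of 14 nuclear regulators of respiratory genes, 7 were positive with a median of −0.02. Nrf1 had 17.5 ± 2.44 TPM in R1ko and 14.7 ± 1.82 TPM in WT, and the coactivator Pprc1 had 8.70 ± 2.65 TPM in R1ko and 11.6 ± 2.88 TPM in WT. No gene of these 3 lists passed the threshold, beside 0.267% of all genes.

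Neighbouring mitochondrial lists lay between all genes and the respiratory subunits, and none of their genes passed the threshold either. Medians of the log2 fold change were 0.09 for 49 proteins of the large mitochondrial ribosomal subunit (40 positive) and 0.07 for 24 of the small subunit (19 positive). They were 0.08 for 14 citric acid cycle genes (12 positive), 0.07 for 28 assembly factors of complexes III and IV (21 positive) and 0.13 for 12 further complex I assembly factors (9 positive). The last lists had medians of 0.14 for 9 subunits and carriers outside the name rule (7 positive) and 0.06 for 18 genes of coenzyme Q synthesis and other electron entry (15 positive). Mrpl53 of the large ribosomal subunit had 72.4 ± 4.89 TPM in R1ko and 58.2 ± 11.5 TPM in WT, and Mrps6 of the small one had 103 ± 6.44 TPM in R1ko and 82.9 ± 19.6 TPM in WT (SD, n = 3 each). Atpif1, the inhibitor of ATP synthase, had 485 ± 15.4 TPM in R1ko and 412 ± 99.9 TPM in WT. The citric acid cycle enzyme Fh1 had 67.5 ± 3.24 TPM in R1ko and 61.2 ± 9.41 TPM in WT.

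Epithelial marker sums were also higher in R1ko as deposited. All 7 colonocyte markers were positive, with a median log2 fold change of 0.21, and their sums, given above, did not overlap between groups as deposited. Scaled, they were 3693, 4388 and 3659.5 TPM in R1ko and 3307, 3935 and 3421 TPM in WT, which overlap through WT replicate 2. The 5 goblet cell markers summed to 8337, 8210 and 8628 TPM in R1ko and 6969, 5565 and 7879 TPM in WT, with 4 positive, a median of 0.32 and no overlap of the sums, as deposited or scaled. The 6 smooth muscle markers summed to 6596, 6013 and 7187 TPM in R1ko and 8238, 5773 and 7420 TPM in WT, with 1 positive, a median of −0.07 and overlapping sums. Scaled, the smooth muscle sums were 6209, 6553 and 6742 TPM in R1ko, below all of 7286, 7347 and 6756 TPM in WT. None of these 18 genes passed the threshold. White adipocyte markers, all 5 positive, summed to 173, 216 and 240.1 TPM in R1ko and 143, 50.02 and 106 TPM in WT, and Cfd of that list was the 1 marker that passed (limma, Benjamini-Hochberg adjusted p = 0.00817), a call lost after scaling (adjusted p = 0.286). The part of these cell types in the mitochondrial values was not tested.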

How the data were processed

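Libraries were made from polyadenylated RNA of 6 whole colons with the SMARTer Universal Low Input kit, per the labels, and paired reads of 50 bases were taken to about 30 M per library. The submitters' processing notes name kallisto 0.43.1, sleuth and mm10. The authors deposited 1 table of TPM, an abundance per effective length in another unit than counts. Its 132639 lines cover 131206 transcripts, and repeated lines were dropped. Of these transcripts 43008 have no value, and 1380 with a value have no gene.

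TPM were summed per gene name. The 14248 genes averaging 1 TPM or more were tested as log2(TPM + 0.5) with limma 3.58.1 in R 4.3.3 (lmFit, eBayes with a variance trend), R1ko against WT, with Benjamini-Hochberg adjustment and a threshold of 0.05. With this pseudocount, changes of low genes are understated. The same fit was run on 31056 transcripts. The fit was tested on simulated data. Median-of-ratios factors were 1.06, 0.918 and 1.07 for R1ko and 1.13, 0.786 and 1.10 for WT. Positions and mitochondrial transcripts came from GENCODE M21 (mm10), promoters from RefSeq (GRCm38.p6). Nuclear copies are annotated genes aligned to mitochondrial transcripts.

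Members, gene lists and marker lists were chosen with earlier results of these data known. Genes named are the mitochondrial ones and, per nuclear class, the highest, the lowest and the extremes of fold change, those with an unadjusted p below 0.05, the isoform pairs, and from each pathway list genes with the smallest p. Genes named because their groups do not overlap, and the transcripts of Sdha, Ndufab1, Cox4i2 and Atp5sl, were chosen after their values were seen. The labels do not say that replicates came from separate litters or days, so p-values rest on the spread between these 3 mice a group. They do not measure the spread of each gene alone, since limma shares variance over genes. The prior degrees of freedom of that sharing were 23.9 as deposited and 3.18 scaled. Alternatives were other pseudocounts, filters, scalings and variance estimates, the replicate number as a block, and leaving out each library.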

Additional observations from a re-analysis of the deposited data

How the results depend on the processing

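Depth is unknown, and 3 mice a group limit what can be called. The count of 38 genes called in limma was 2 with no filter, 142 with a filter at 5 TPM, 24 with a pseudocount of 0.1, 83 with robust variance, 6 with median-of-ratios scaling, 7 with quantile normalization, 5 rescaled to nuclear genes, 4 rescaled to transcripts with a gene, and 19 to 307 with a library left out. Scaled counts, chosen after seeing the data, were 21 without WT replicate 2 and 3 without R1ko replicate 2. The 13 transcripts called became 7 with a pseudocount of 0.1 and 1 to 57 with a library left out. With the replicate number as a block, 71 genes, 1 transcript and 0 members were called. Same-numbered libraries deviated together only weakly (correlations 0.052, 0.132 and 0.183), and R1ko replicate 1 correlated best with WT replicate 3 (0.098), so the number is not taken as a pairing.

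The count of members called was 0 as deposited and 1 with the filter at 5 TPM, and 0 to 1 with a library left out. That member was Cox8b, which passed with the filter (adjusted p = 0.000487) and without R1ko replicate 1, R1ko replicate 3 or WT replicate 1; the range of its adjusted p over all alternatives was 3.46e-10 to 1. The mitochondrial median of 0.33 was 0.12 with quantile normalization and 0.20 rescaled to transcripts with a gene, and it was above the nuclear median in all 22 settings compared. The log2 ratio of mitochondrial to nuclear genes was 0.14 without mt-Atp8 and mt-Nd4l and 0.17 with nuclear copies added.

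Fold changes near 0 turned in sign. Under quantile normalization Atp5k was −0.16, Ndufs8 −0.029, Sdhd −0.040, Uqcrfs1 −0.036 and mt-Nd6 −0.097. Rescaled to transcripts with a gene, Atp5k was −0.13, Ndufs8 −0.055, Sdhd −0.020, Uqcrfs1 −0.027 and mt-Nd6 −0.081. Rescaled to nuclear genes, Atp5k was −0.093, Ndufs8 −0.022 and mt-Nd6 −0.048. Atp5k was −0.027 with median-of-ratios scaling, with and without the replicate block. Scaled and without R1ko replicate 2, Atp5k was −0.078, Ndufs8 −0.032, Sdhd −0.0057, Uqcrfs1 −0.041 and mt-Nd6 −0.046. With a library left out, values ran over −0.12 to 0.097 for Atp5k, −0.27 to 0.030 for Ndufab1, −0.055 to 0.17 for Ndufs8, −0.046 to 0.20 for Sdhd, −0.073 to 0.20 for Uqcrfs1 and −0.059 to 0.18 for mt-Nd6. The cause was not tested. Adding the mitochondrial ribosomal and transfer RNAs could not be run, because the table lists no value for them.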

Other observations

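The mitochondrial genes hold a few values that belong to no comparison above. Of the nuclear copies, Gm28438, which matches 345 of the 348 bases of mt-Nd3 at 99.7% identity, was assigned 3.43, 102 and 0.113 TPM in R1ko and 211, 11.02 and 1.63 TPM in WT, a spread within each group far beyond that of mt-Nd3 itself. Gm29216, a copy of part of mt-Co1, was assigned 10.6, 6.02 and 6.20 TPM in R1ko and 56.3, 10.4 and 13.9 TPM in WT. Gm10222 matches 294 of the 297 bases of mt-Nd4l at 100% and was listed at 0 in all 6 libraries. All copies together held 0.600 ± 0.05% of TPM in R1ko and 0.488 ± 0.19% in WT (SD, n = 3 each), with overlap.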
